A study of Saccharomyces cerevisiae with 9 samples.

Results

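The 10 genes described here serve iron uptake and the response to iron limitation in budding yeast: FET3, FTR1, FIT1, FIT2, FIT3, ARN1, ARN2, FET4, AFT1 and TIS11 (YLR136C). They were chosen by name among the 6256 genes of the array. For 9 of them the name stood in the files, and AFT1, which the files list under its older name RCS1 (YGL071W), was matched through its RefSeq symbol. Together they had 18 spots per array, 1 each for FTR1 and FIT3 and 2 for each other gene, and the spots of a gene were averaged. All 10 were among the 5865 genes tested, a set that required a signal well above background, in the strain or the reference channel, on 3 or more of the 9 arrays.

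The study compared RNA of 5 yeast strains on 9 Agilent arrays with 2 dyes. Each array held a strain's RNA in Cy5 and a common reference in Cy3, pooled from RNA of both parental strains grown on glucose or on ethanol. Levels are therefore log2 ratios of strain over reference, and a difference of 1 between strains is 2-fold. RM11-1a, a haploid derived from a vineyard isolate, and BY4716, a laboratory strain, are the parents and had 3 arrays each, numbered 7, 9 and 11 in the labels. YAD350 carries the MKT1 D30G replacement in BY4742, YLK804 carries the SAL1-RM allele in BY4724, YLK806 carries the SAL1-BY allele in RM11-1a, and each of these 3 exchange strains had 1 array. All strains grew in yeast nitrogen base with 2% glucose, 100 mg/L leucine, 100 mg/L lysine and 20 mg/L uracil, and YAD350 also had 20 mg/L histidine. Whether the 3 arrays of a parent stand for separate cultures is not given in the labels, and the p-values therefore reflect array-to-array spread that may be technical only.

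When iron is scarce, the transcription factors Aft1 and Aft2 enter the nucleus and activate the iron regulon. Its genes encode surface reductases, the high-affinity iron transporter, carriers of siderophores (iron chelators secreted by microbes) and mannoproteins of the cell wall that help retain siderophores. The regulon also includes TIS11, also called CTH2, whose protein binds messenger RNAs of iron-using proteins and promotes their decay, so that iron is spared.

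The labels of the exchange arrays disagree on which dye held the strain; it was read as Cy5 because the log2 ratios of these arrays correlated positively with those of the background parent across genes (YAD350, r = 0.807; YLK804, r = 0.879; YLK806, r = 0.886). The median signal of an array was 237 to 424 for the strain and 179 to 272 for the reference. Scanning took place on 6 days, of which 1 held an array of each parent, RM11-1a replicate 9 and BY4716 replicate 9. YAD350, RM11-1a replicate 7 and RM11-1a replicate 11 were each the only array of their scan day. For these arrays, array and scan day cannot be told apart. Replicate 7 of RM11-1a stood apart from its strain in the iron genes, as described below, and results that rest on it are given with and without it. It was singled out by its values in these same genes, and leaving it out lowers the spread of those where it stood apart. A gene that passes only without this array therefore gains no support from that. YAD350 and YLK804 differed from BY4716 in more than the exchanged allele. All 5 markers of mating type a had log2 ratios above 0 in RM11-1a, YLK804 and YLK806, and all 4 markers of mating type alpha did in BY4716 and YAD350. URA3 had a log2 ratio of -2.89 in YAD350 and -3.47 in YLK804, against 1.35 to 1.40 in BY4716, and HIS3 had -4.20 in YAD350, against 0.26 to 0.30 in BY4716. The parents differed in such markers too. In RM11-1a, URA3 had -2.42, -2.42 and -2.63, and LYS2 had 0.98, 0.99 and 0.91, against -3.3, -3.0 and -3.1 for LYS2 in BY4716. The part of mating type and markers in the differences between strains was not tested.

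**Figure D1:**
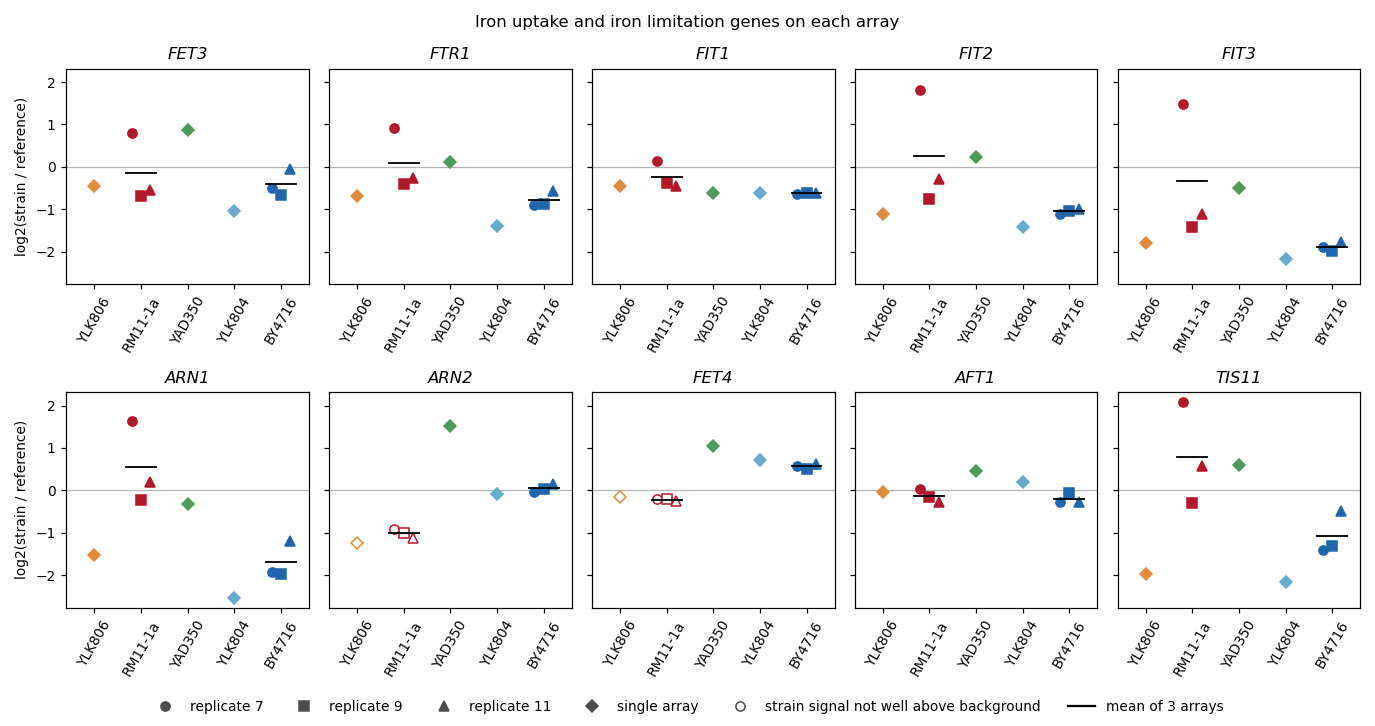
Log2 ratio of strain over common reference (vertical axis) of the 10 genes on each array, by strain (horizontal axis). Points are arrays, lines are means of 3 arrays, and open points mark a strain signal not well above background. RM11-1a replicate 7 is the highest RM11-1a array for every gene but is separated from the other 2 by over 1 log2 unit only for FET3, FTR1, FIT2, FIT3, ARN1 and TIS11, while ARN2 and FET4 lie below BY4716 on all 3 RM11-1a arrays.

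The comparison of the parents asks how the 2 strains differ in iron gene expression. In RM11-1a, ARN1, TIS11, FTR1 and FIT1 were higher than in BY4716, and ARN2 and FET4 were lower. These are 6 of the 10 genes, where 63.0% of all genes tested were called (33.1% higher and 29.9% lower), so the count stands near the background. The median log2 difference of the 10 genes was 0.63, and that of all genes was 0.0055. The median of the 10 genes was 0.33 without RM11-1a replicate 7. For 8 of the 10, every array of RM11-1a lay on one side of every BY4716 array, and the same held for 70.2% of genes.

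FET3 encodes the multicopper ferroxidase of the high-affinity iron transporter, and FTR1 the permease that works with it. FET3 had log2 ratios of 0.80, -0.70 and -0.55 in RM11-1a replicates 7, 9 and 11, against -0.51, -0.66 and -0.05 in BY4716. Replicate 7 was the highest of these arrays and replicate 9 of RM11-1a the lowest, so the strains overlapped. The log2 difference was 0.26 ± 0.38 (SE, n = 3 each; limma, adjusted p = 0.581), and without RM11-1a replicate 7 it was -0.22.

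FTR1 had log2 ratios of 0.91, -0.40 and -0.26 in RM11-1a, against -0.89, -0.88 and -0.57 in BY4716. Every RM11-1a array lay above every BY4716 array. The log2 difference was 0.86 ± 0.32 (SE; limma, adjusted p = 0.0455), and without RM11-1a replicate 7 it was 0.45 (adjusted p = 0.00587).

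FIT1, FIT2 and FIT3 encode mannoproteins of the cell wall that retain siderophore iron. FIT2 had log2 ratios of 1.82, -0.76 and -0.30 in RM11-1a, against -1.10, -1.04 and -1.002 in BY4716. FIT3 had 1.49, -1.42 and -1.11 in RM11-1a, against -1.90, -1.98 and -1.77 in BY4716. For both genes the strains did not overlap, the BY4716 arrays lay close together, and RM11-1a replicate 7 lay far above the other 2. The log2 differences of 1.305 ± 0.59 for FIT2 and 1.54 ± 0.68 for FIT3 (SE) did not pass (limma, adjusted p = 0.0878 and 0.0841). Without RM11-1a replicate 7 they shrank to 0.52 ± 0.12 and 0.62 ± 0.097 and passed (adjusted p = 0.00651 and 9.6e-04). FIT1 had 0.13, -0.37 and -0.45 in RM11-1a, against -0.63, -0.63 and -0.62 in BY4716. Its strains did not overlap either, and its log2 difference was 0.39 ± 0.14 (SE; limma, adjusted p = 0.0386), or 0.21 without RM11-1a replicate 7.

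ARN1 encodes a plasma membrane transporter of ferrichrome-type siderophores, and ARN2 (also TAF1) one of triacetylfusarinine C. The 2 genes differed in opposite directions. ARN1 had log2 ratios of 1.64, -0.23 and 0.21 in RM11-1a, against -1.93, -1.97 and -1.19 in BY4716. The lowest RM11-1a array lay above the highest BY4716 array. ARN1 thus differed by 2.24 ± 0.46 on the log2 scale (SE; limma, adjusted p = 0.00365), a 4.71-fold higher ratio in RM11-1a, and by 1.69 without RM11-1a replicate 7 (adjusted p = 5.12e-04).

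ARN2 had log2 ratios of -0.91, -1.002 and -1.12 in RM11-1a, against -0.03, 0.03 and 0.16 in BY4716. The groups were far apart, and RM11-1a replicate 7 did not stand out. For ARN2 the log2 difference was -1.06 ± 0.069 (SE; limma, adjusted p = 1.12e-05). The strain signal of ARN2 was not well above background on any RM11-1a array and was on all 3 BY4716 arrays, so only a bound can be given: the strain channel of ARN2 was at least 2.12-fold lower in RM11-1a.

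FET4 encodes the low-affinity iron transporter, which also takes up other divalent metals. Its log2 ratios were -0.20, -0.21 and -0.26 in RM11-1a, against 0.57, 0.51 and 0.61 in BY4716. Within each strain the arrays differed by at most 0.10 on the log2 scale, and the strains were well separated. For FET4 the log2 difference was -0.79 ± 0.039 (SE; limma, adjusted p = 2.75e-06). FET4 too was not well above background on any RM11-1a array, and its strain channel was at least 1.74-fold lower there. The reference signal of FET4 was also low, 36.9 to 46.3 on the parental arrays with background included. Both bounds were computed per channel after normalization, and without a dye swap they may include a dye effect. The offset added to every signal also draws ratios of dim genes toward 0: in the deposited ratios, which have no offset, ARN2 averaged -3.90 ± 0.12 in RM11-1a and 0.15 ± 0.18 in BY4716 (SD, n = 3 each), and FET4 averaged -1.82 ± 0.057 in RM11-1a and 1.72 ± 0.18 in BY4716. Other dim genes moved as well: in the deposited ratios FIT2 averaged 0.06 ± 2.08 in RM11-1a and -2.85 ± 0.37 in BY4716, and FIT1 averaged -0.57 ± 0.72 in RM11-1a and -1.63 ± 0.011 in BY4716. The log2 differences were then 2.91 for FIT2, which passed (limma, adjusted p = 0.0256), and 1.06 for FIT1 (adjusted p = 0.0207).

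AFT1, the transcriptional activator of the regulon, had log2 ratios of 0.04, -0.15 and -0.28 in RM11-1a, against -0.27, -0.06 and -0.27 in BY4716. The strains overlapped, with a log2 difference of 0.07 ± 0.091 (SE; limma, adjusted p = 0.523), and a 95% confidence interval from -0.14 to 0.28. The difference was -0.01 without RM11-1a replicate 7. AFT2, its paralogue, had a log2 difference of -0.08 (adjusted p = 0.0791).

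TIS11 had log2 ratios of 2.09, -0.29 and 0.57 in RM11-1a, against -1.41, -1.32 and -0.49 in BY4716. All RM11-1a arrays lay above all BY4716 arrays, although each strain spanned a wide range. For TIS11 the log2 difference was 1.86 ± 0.56 (SE; limma, adjusted p = 0.0204), or 1.22 (adjusted p = 0.0116) without RM11-1a replicate 7.

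Leaving out BY4716 arrays also moved the count of genes called in the comparison of the parents. Without BY4716 replicate 7, and likewise without BY4716 replicate 9, 3 genes were called, in both cases ARN1, ARN2 and FET4, where 54.0% and 57.5% of all genes were called. Within the scan day that held both parents, with 1 array each and no test, RM11-1a minus BY4716 was 1.74 for ARN1, 1.03 for TIS11, 0.57 for FIT3, 0.48 for FTR1, 0.28 for FIT2, 0.25 for FIT1, -0.04 for FET3, -0.08 for AFT1, -0.73 for FET4 and -1.03 for ARN2 on the log2 scale.

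**Figure D2:**
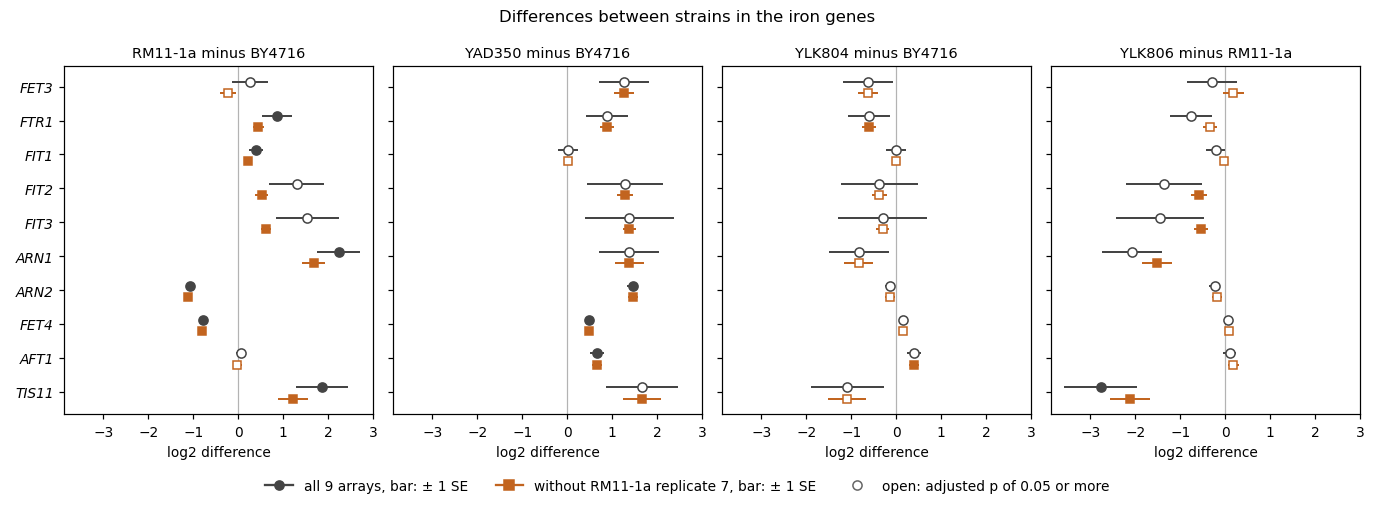
Log2 difference (horizontal axis) of the 10 genes (vertical axis) in 4 comparisons of strains, from all 9 arrays (circles) and without RM11-1a replicate 7 (squares). Bars are ± 1 SE and open symbols have an adjusted p of 0.05 or more. Without that array the SEs of FET3, FTR1, FIT1, FIT2, FIT3, ARN1 and TIS11 are smaller in all 4 comparisons, unlike that of FET4. The array was singled out by its values in these genes. In YAD350, 9 of the 10 genes pass without it, where 49.2% of all genes do. With all 9 arrays 3 pass, where 47.1% of all genes do.

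Several of the 10 genes, but not all, varied widely between replicate arrays of a parent. The within-strain SD of FIT3 in RM11-1a was 1.60 on the log2 scale and ranked 1 of 5844 genes, that of FIT2 was 1.38 and ranked 3, and that of TIS11 was 1.201 and ranked 4. The median SD over genes was 0.060 in RM11-1a and 0.041 in BY4716. In BY4716 the SD of TIS11 was 0.51 and ranked 5, and that of ARN1 was 0.44 and ranked 9. FIT2 and FIT1, with SDs of 0.052 and 0.0078 in BY4716, ranked 2091 and 5692 there. Both genes were dim, and the offset draws such ratios toward 0. In the deposited ratios their SDs in BY4716 were 0.37 for FIT2 and 0.011 for FIT1. ARN2 and FET4 had SDs of 0.11 and 0.031 in RM11-1a, where they ranked 1045 and 4682, and of 0.096 and 0.050 in BY4716. In RM11-1a their strain signals were not well above background, so these SDs do not show how steady the genes were there.

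Every parental array was therefore set against the mean of the other 2 arrays of its strain. In RM11-1a replicate 7, 6 of the 10 genes were at least 2-fold higher, where 0.290% of 5859 genes differed by that much in either direction. These were FIT3 with 2.76, FIT2 with 2.35, TIS11 with 1.94, ARN1 with 1.65, FET3 with 1.43 and FTR1 with 1.24 on the log2 scale. ARN2, with 0.16, and FET4, with 0.04, stayed close to the other arrays. Their strain signals were not well above background on any RM11-1a array, so a moderate rise of these genes could have been missed. Only 15 genes in all were at least 2-fold higher on this array, and 6 of the other 9 belong to a list of 22 further genes of the Aft1/Aft2 regulon. Those 6 were the reductase genes FRE2 (2.57), FRE1 (1.63) and FRE3 (1.31), the siderophore transporter genes ENB1 (2.02) and SIT1 (1.94), and CCC2 (1.08), which encodes the copper pump that supplies the ferroxidase.

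Among 28 genes listed as iron-using enzymes, the median difference of RM11-1a replicate 7 from its strain mates was -0.43 on the log2 scale. That list also holds LYS20, HEM13 and RNR4, which do not encode iron enzymes themselves. On it, 2 genes were at least 2-fold lower: BIO2 (-1.09), biotin synthase with an iron-sulfur cluster, and CTT1 (-1.17), the cytosolic catalase with heme. In RM11-1a replicate 9, 4 of the 10 genes were at least 2-fold lower than the mean of replicates 7 and 11, where 0.188% of genes differed by that much, and 1 was in replicate 11, where 0.0171% did; both means contain replicate 7. No member was 2-fold away in any BY4716 array, where 0%, 0% and 0.0342% of genes were in replicates 7, 9 and 11. Replicate 11 of BY4716 had the highest values of its strain for TIS11 (0.87 above the other 2), ARN1 (0.76) and FET3 (0.54), which ranked 3, 4 and 6 among the genes highest on that array.

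**Figure D3:**
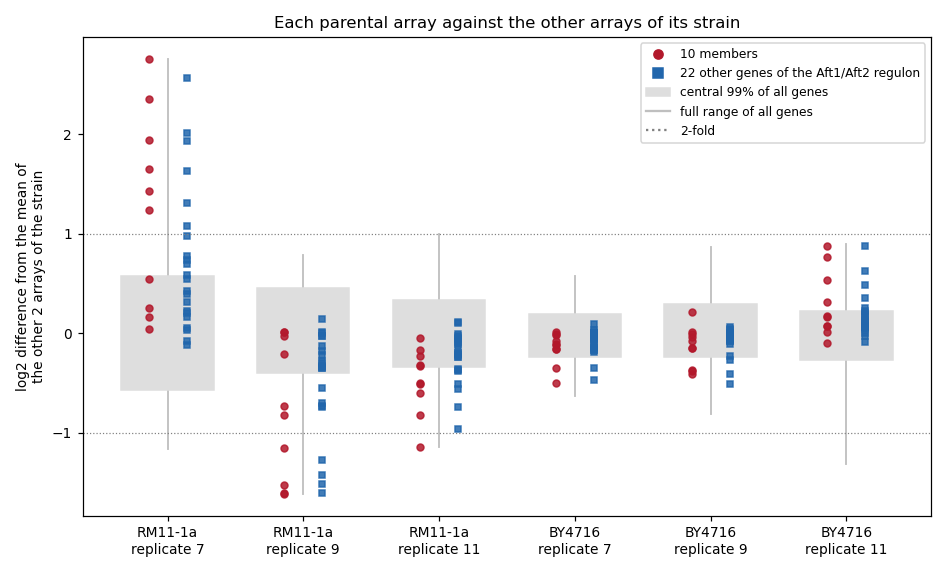
Log2 difference of each parental array from the mean of the other 2 arrays of its strain (vertical axis), by array (horizontal axis). Circles are the 10 genes, squares 22 other genes of the Aft1/Aft2 regulon, grey boxes the central 99% of all genes and grey lines their full range. In RM11-1a replicate 7, FIT3 is the highest of all genes, and 6 circles and 6 squares lie above the upper 2-fold line.

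The spread lay in the strain channel. Reference signals of the 10 genes were similar over the 6 parental arrays, for example 449 to 585 for FIT3 and 92.7 to 114 for FIT2. The strain signal of FIT3 was 2944 in RM11-1a replicate 7, against 222 and 377 in replicates 9 and 11. That of FIT2 was 649 in replicate 7, against 55.3 and 109. For the 8 genes with 2 spots, the spots of an array differed by at most 0.54 on the log2 scale, less than the gap between RM11-1a replicate 7 and the mean of its mates in FET3, FIT2, ARN1 and TIS11. FTR1 and FIT3 had 1 spot each and no such check.

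**Figure D4:**
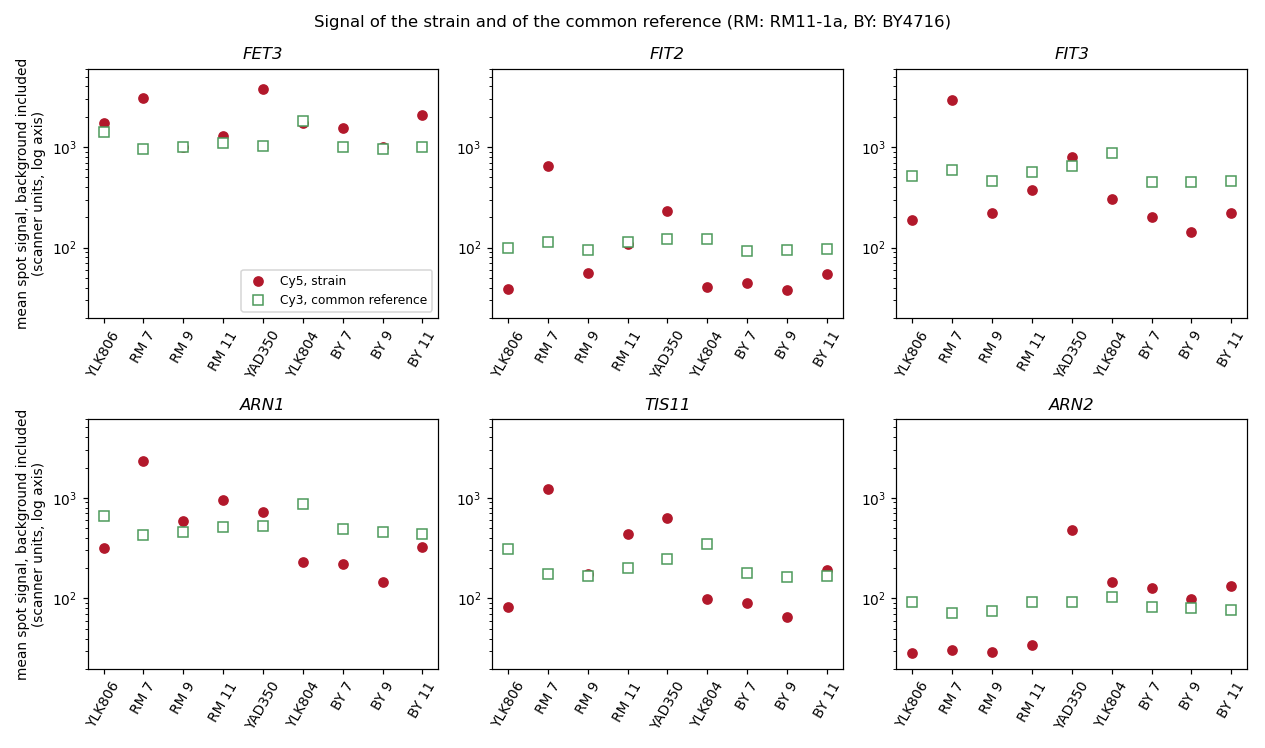
Mean spot signal with background included, in scanner units on a log axis, of the strain in Cy5 (filled circles) and the common reference in Cy3 (open squares) on each array, for 6 of the 10 genes. For FIT3 the reference lies between 449 and 585 on the parental arrays while the strain signal reaches 2944 in RM11-1a replicate 7. On the YLK804 array the reference signal of FET3, FIT3, ARN1 and TIS11 is above that of every parental array. Signals are not normalized, and the median reference signal of that array, 272, is also above that of every parental array (179 to 210).

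Of the 22 other genes of the Aft1/Aft2 regulon, 10 were higher in RM11-1a than in BY4716 and 0 were lower, with a median log2 difference of 0.55. Among all genes, 33.1% were higher and 29.9% lower. With RM11-1a replicate 7 left out, 11 of the 22 were higher and 0 lower, with a median of 0.23, where 31.0% of all genes were higher. HMX1, the heme oxygenase that frees iron from heme, had log2 ratios of 1.39, 0.25 and 0.58 in RM11-1a, against -2.75, -2.65 and -2.45 in BY4716. All RM11-1a arrays lay over 2 log2 units above BY4716, and the log2 difference of HMX1 was 3.36 ± 0.26 (SE; limma, adjusted p = 2.52e-05). FRE1 and FRE2, which encode the main surface iron reductases, rose by 1.82 and 1.79 (limma, adjusted p = 0.00926 and 0.0411). The log2 differences were 1.27 for FRE1, 0.93 for FRE2 and 3.03 for HMX1 without RM11-1a replicate 7, and all 3 passed.

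**Figure D5:**
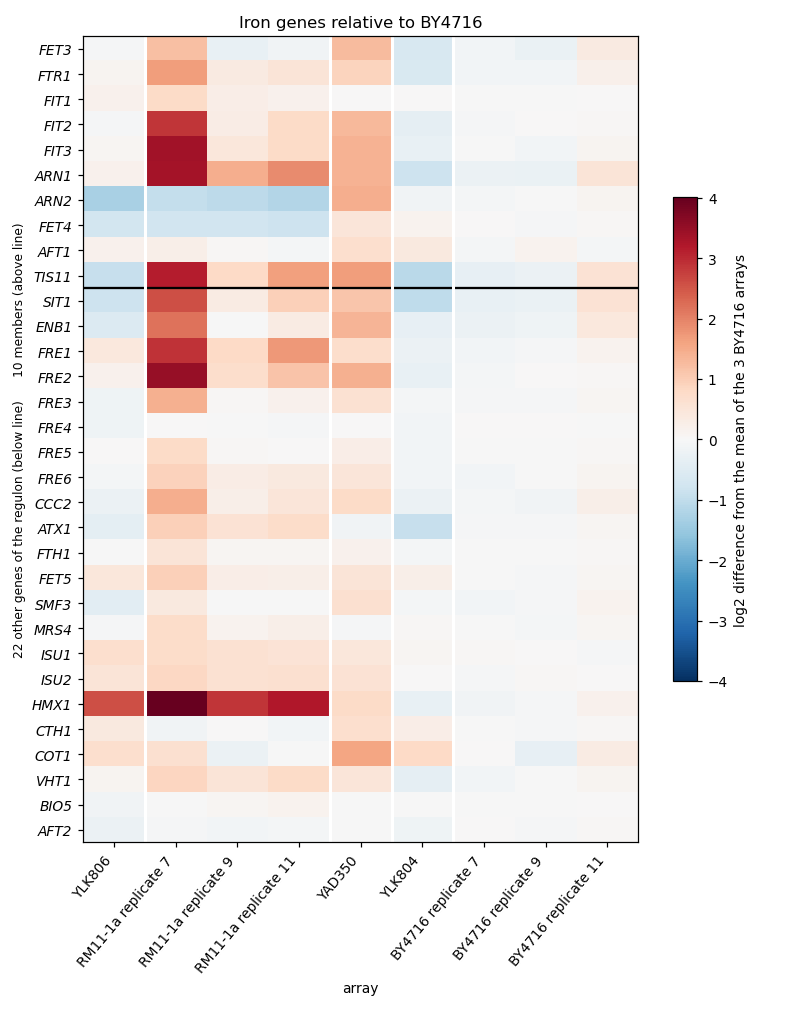
Log2 difference of each array from the mean of the 3 BY4716 arrays (colour) for the 10 genes (above the black line) and 22 other genes of the Aft1/Aft2 regulon (below it), with arrays along the horizontal axis. Red is higher and blue lower than BY4716. HMX1, FIT2, FIT3 and FRE2 are each on the red side in all 3 RM11-1a arrays and darkest in replicate 7. Of these genes, HMX1 is the darkest in YLK806.

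The counts of the remaining lists stand against the 63.0% of all genes called between the parents, and nothing is read from them about a list as a whole. Of 25 genes of iron-sulfur cluster assembly and iron sensing, 16 were higher and 4 lower in RM11-1a (median 0.16), led by NFS1, the cysteine desulfurase, with 0.71, DRE2 with 0.67 and IBA57 with 0.62. Of the 28 genes listed as iron-using enzymes 15 were higher and 3 lower (median 0.34), led by CTT1 with 3.49, CYC1 (cytochrome c) with 2.64 and LEU1 (isopropylmalate isomerase) with 2.36. LEU2, a strain marker of leucine synthesis, had log2 ratios of -2.79, -2.71 and -2.85 in RM11-1a, against 1.18 to 1.31 in BY4716. Its part in the difference of LEU1 was not tested. Of 6 genes of copper supply, 4 were higher and 0 lower (median 0.41), including the vacuolar copper exporter CTR2 with 0.79, MAC1 with 0.16 and FRE7 with 0.12. Of 3 genes of vacuolar iron storage and its control, 2 were lower and 0 higher, among them TYW1 with -0.27. CCC1, also on that list, had -0.0015 (limma, adjusted p = 0.994).

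Of 9 genes of other divalent metal transport, 5 were higher and 2 lower in RM11-1a. The phosphate transporter gene PHO84 was lower by 5.01 on the log2 scale (log2 difference -5.01), while the manganese transporter gene SMF1 and the zinc transporter gene ZRT1 were higher by 0.92 and 0.91. Of 5 repressors and regulators at FET4 outside iron, 3 were higher and 1 lower: MOT3, a repressor of hypoxic genes, had a log2 difference of 0.53, the corepressor gene TUP1 had 0.44, and ZAP1, the zinc-responsive activator, which is also on the list of metal transport, had -0.40. Of the genes given with a log2 difference from these lists, all but CCC1 passed in the limma fit.

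The comparison of YAD350 with BY4716 asks what goes with the MKT1 replacement in a BY background. It rests on 1 array, which was scanned on a day with no other array, and shares the BY4716 arrays with the comparison of the parents. The part of the scan day was not tested. ARN2, FET4 and AFT1 were higher in YAD350. These are 3 of the 10 genes, where 47.1% of all genes tested were called (26.6% higher and 20.5% lower). The median log2 difference was 1.28 over the 10 genes and 0.022 over all genes. All 10 genes had a YAD350 value above the 3 BY4716 arrays, and 87.4% of genes lay outside the range of BY4716 on that array.

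ARN2 had a log2 ratio of 1.52 in YAD350, against -0.03, 0.03 and 0.16 in BY4716. Its YAD350 value was the highest of the 9 arrays, with a log2 difference of 1.46 ± 0.098 (SE, n = 1 against 3; limma, adjusted p = 1.38e-04). The strain signal of ARN2 was 481 on the YAD350 array, against 126, 98.6 and 133 in BY4716, and the reference signal was 92.2, against 76.9 to 81.5. FET4 had 1.05 in YAD350, against 0.57, 0.51 and 0.61 in BY4716, a log2 difference of 0.49 ± 0.056 (adjusted p = 7.43e-04). AFT1 had 0.47 in YAD350, against -0.27, -0.06 and -0.27 in BY4716, a log2 difference of 0.67 ± 0.13 (adjusted p = 0.00502). These 2 genes were likewise highest in YAD350 among the 9 arrays.

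The other members had positive differences that did not pass with all 9 arrays, whose shared spread includes RM11-1a replicate 7. TIS11 had 0.60 in YAD350, against -1.41, -1.32 and -0.49 in BY4716, a log2 difference of 1.67 ± 0.79 (SE; limma, adjusted p = 0.118). FET3 had 0.86 in YAD350, against -0.51, -0.66 and -0.05 in BY4716, a log2 difference of 1.27 ± 0.54 (adjusted p = 0.0879). FIT3, ARN1, FIT2 and FTR1 had log2 differences of 1.39, 1.38, 1.29 and 0.89. FIT1 had 0.02 and the other 9 genes at least 0.49. In the deposited ratios, which have no offset, YAD350 minus BY4716 was 3.23 for FIT2 and 0.30 for FIT1 (limma, adjusted p = 0.0764 and 0.607).

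Without RM11-1a replicate 7 the differences of YAD350 stay the same, because that array is no part of them, while the spread of most of the genes shrinks. The array was singled out by its values in these genes, so the smaller spread follows from that choice and adds no support. Then 9 of the 10 genes were called, all but FIT1, where 49.2% of genes were, with an adjusted p of 2.28e-04 for FIT3, 5.79e-04 for FIT2, 0.002 for FET3 and 0.0112 for TIS11. Of the 22 other genes of the regulon 6 were higher in YAD350 and 0 lower (median 0.54), where 26.6% of all genes were higher. Without RM11-1a replicate 7, 16 of the 22 were higher, where 28.4% of all genes were. COT1, a vacuolar zinc and cobalt transporter, had a log2 difference of 1.59 and CTH1, the paralogue of TIS11, of 0.66 (limma, adjusted p = 0.00805 and 5.89e-04). For CTH1 the reference channel was 0.27 lower and the strain channel 0.39 higher on the log2 scale.

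The list counts below stand against 26.6% of all genes higher and 20.5% lower in YAD350, and nothing is read from them. Outside the regulon, 8 of 28 iron-using enzymes were higher in YAD350 and 1 lower. They were led by LEU1 with 2.17 and OLE1, the fatty acid desaturase, with 0.58. LEU2, a leucine synthesis gene used as a strain marker, had a log2 ratio of -3.16 in YAD350, against 1.18 to 1.31 in BY4716, and its part in the difference of LEU1 was not tested. Of 25 iron-sulfur and iron-sensing genes 6 were higher and 4 lower, with FRA1 at 0.65 and IBA57 at 0.54. For FRA1 the strain channel moved by 0.13 and the reference channel by -0.52, and for OLE1 they moved by 0.25 and -0.34. Of 9 metal transport genes 3 were higher and 0 lower, with PHO84 at 1.45 and PMR1 at 0.75, of which the reference channel of PMR1 moved by -0.51. Copper supply had 0 higher and 1 lower of 6, which was CUP2 at -0.36, with the strain channel moved by -0.11 and the reference channel by 0.25. Vacuolar storage had 0 higher and 1 lower of 3, which was TYW1 at -0.48. CCC1, on the same list, had 0.48 and was not called, with the strain channel moved by -0.14 and the reference channel by -0.62. The regulators at FET4 had 0 of 5 in either direction.

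The comparison of YLK804 with BY4716 asks the same for the SAL1-RM allele in a BY background, again with 1 array and the same BY4716 arrays. None of the 10 genes was called by limma, where 21.1% of all genes were (10.2% lower), and 2 had an unadjusted p under 0.05: AFT1 with a log2 difference of 0.40 (adjusted p = 0.0658) and FET4 with 0.15 (adjusted p = 0.0956). For FET4 the strain channel moved by 0.028 and the reference channel by -0.12, and its 2 spots on the YLK804 array differed by 0.51. For AFT1 the channels moved by 0.37 and -0.027. Of the 10, 9 lay outside the range of the BY4716 arrays, as did 81.4% of all genes. The counts under other settings lay between 0 and 2, where 10.1% to 24.7% of all genes were called.

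Only 3 of the 10 genes had a log2 difference above 0. TIS11 had a log2 ratio of -2.16 in YLK804, against -1.41, -1.32 and -0.49 in BY4716, and ARN1 had -2.53, against -1.93, -1.97 and -1.19. FET3 had -1.04 in YLK804, against -0.51, -0.66 and -0.05 in BY4716, and FTR1 had -1.38, against -0.89, -0.88 and -0.57. The log2 differences were -1.09 ± 0.79 for TIS11, -0.84 ± 0.65 for ARN1, -0.63 ± 0.54 for FET3 and -0.60 ± 0.45 for FTR1 (SE; limma, adjusted p between 0.352 and 0.43). Without RM11-1a replicate 7, FTR1 passed as lower (adjusted p = 0.0166) and AFT1 as higher (adjusted p = 0.0253).

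The reference channel moved on this array as well. For TIS11 the strain channel was lower by 0.53 and the reference channel higher by 0.56 on the log2 scale, relative to BY4716, and for ARN1 these values were 0.40 and 0.43. Before normalization the reference signal of FET3 was 1789 on the YLK804 array and 1397 on the YLK806 array, against 950 to 1106 on the parental arrays. The median reference signal was higher there too, 272 and 225 against 179 to 210. After normalization the reference channel of FET3 moved by 0.25 in YLK804 minus BY4716 and by 0.18 in YLK806 minus RM11-1a. The YLK804 and YLK806 arrays were scanned on 1 day with another version of the extraction software than the other 7. The part of that in these differences was not tested. Of the 22 other regulon genes 1 was higher and 1 lower: CTH1 with 0.27 and ATX1, the copper chaperone, with -0.91, where the strain channel of ATX1 moved by -0.47 and the reference channel by 0.44. Of the other lists, iron-sulfur and iron-sensing genes had 1 higher and 4 lower of 25, with FRA1 at 0.38 and FRA2 at -0.38, both of them regulators of iron sensing. Copper supply had 2 lower of 6 (FRE7 with -0.33 and CUP2 with -0.24), where the strain channel moved by -0.054 for FRE7 and 0.17 for CUP2 and the reference channel by 0.27 and 0.41. Of 28 iron-using enzymes 1 was lower, the peroxisomal catalase gene CTA1 with -0.54. For FRA1 the strain channel moved by -0.32 and the reference channel by -0.70, and for CTA1 they moved by -0.28 and 0.26.

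The comparison of YLK806 with RM11-1a asks the same for the SAL1-BY allele in an RM11-1a background. TIS11 was lower in YLK806, and it was the only one of the 10 genes called, where 22.5% of all genes were (10.8% higher and 11.8% lower). It had a log2 ratio of -1.98 in YLK806, against 2.09, -0.29 and 0.57 in RM11-1a. The YLK806 value lay below every parental array of either strain. This log2 difference of TIS11 was -2.77 ± 0.79 (SE, n = 1 against 3; limma, adjusted p = 0.0429), and without RM11-1a replicate 7 it was -2.12 (adjusted p = 0.017). The strain channel of TIS11 moved by -2.31 and the reference channel by 0.46.

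ARN1 had -1.53 in YLK806, against 1.64, -0.23 and 0.21 in RM11-1a, a log2 difference of -2.08 ± 0.65 (limma, adjusted p = 0.0566), and it passed without RM11-1a replicate 7 (-1.52, adjusted p = 0.019). FIT3 had -1.80 in YLK806, against 1.49, -1.42 and -1.11 in RM11-1a, and FIT2 had -1.11, against 1.82, -0.76 and -0.30. Both lay below all RM11-1a arrays, and the differences of -1.45 and -1.36 had adjusted p of 0.305 and 0.267. Without RM11-1a replicate 7 they were -0.53 and -0.58 and passed (adjusted p = 0.0307 and 0.0436), so 4 genes were called then, where 19.3% of genes were. Without RM11-1a replicate 11, and without any 1 of the BY4716 arrays, 0 of the 10 were called, where 14.6% to 22.4% of all genes were. Of the 10 genes, 7 lay outside the range of RM11-1a, as did 73.9% of all genes.

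FET3 had -0.44 in YLK806, against 0.80, -0.70 and -0.55 in RM11-1a, within the range of that strain. ARN2 and FET4 had -1.24 and -0.15 in YLK806 and were not well above background there, as in RM11-1a, so no fold is given. For FET4 the reference signal was not well above background in YLK806 either. Of the 22 other regulon genes 1 was higher (CTH1, at 0.46) and 2 lower, where 10.8% of all genes were higher and 11.8% lower. The 2 lower genes were ATX1 with -1.15 and the biotin transporter gene VHT1 with -0.60 (limma, adjusted p = 0.00464 and 0.0214). For ATX1 the strain channel moved by -0.65 and the reference channel by 0.50. In the other lists, the heme synthesis gene HEM13 and the ribonucleotide reductase gene RNR4 were higher, with 0.68 and 0.55, and CTR2 and SMF2 were lower, with -0.55 and -0.42. The strain channel moved by 0.285 for HEM13, -0.074 for RNR4, -0.271 for CTR2 and -0.486 for SMF2. The reference channel moved by -0.40, -0.62, 0.275 and -0.066 for these genes. Without RM11-1a replicate 7, 2 of the 22 regulon genes were higher and 9 lower, where 9.60% of all genes were higher and 9.65% lower.

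YLK806 and YLK804 allow a comparison of the backgrounds on arrays other than the parental ones. ARN2 and FET4 were lower in YLK806 than in YLK804, with fitted log2 differences of -1.16 ± 0.12 and -0.87 ± 0.068 (SE, n = 1 each with the spread of the parental arrays; limma, adjusted p = 3.34e-04 and 9.03e-05). Called genes made up 2 of 10, where 41.1% of all genes were called (22.1% higher and 18.9% lower). ARN2 had -1.24 in YLK806, against -0.08 in YLK804, and FET4 had -0.15, against 0.72. Neither was well above background in YLK806, so the strain channel gives only a bound, at least 2.17-fold lower in YLK806 for ARN2 and at least 1.99-fold lower for FET4. The reference signal of FET4 was not well above background on the YLK806 array either (36.5, background included), so its ratio there holds 2 dim channels. TIS11 had -1.98 in YLK806, against -2.16 in YLK804, and the log2 difference of 0.18 had a 95% confidence interval from -2.07 to 2.43. For ARN1 the difference was 0.997 ± 0.79 (adjusted p = 0.353). Of the 22 other regulon genes 4 were higher in YLK806 and 0 lower, led by HMX1 with 2.86 and ISU1, the scaffold of iron-sulfur assembly, with 0.59. Of 28 iron-using enzymes 15 were higher and 0 lower, led by CTT1 with 3.85 and CYC1 with 3.21.

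The effect of the SAL1 allele averaged over both backgrounds, SAL1-RM minus SAL1-BY, was called by limma for none of the 10 genes, where 0.853% of all genes were called, and 0 had an unadjusted p under 0.05. The average had a positive sign for 9 of the 10 genes. TIS11 had a log2 effect of 0.84 ± 0.56 and ARN1 of 0.62 ± 0.46, with confidence intervals of 95% from -0.46 to 2.14 and from -0.45 to 1.69. The SAL1 effect in the BY background minus that in the RM11-1a background was -2.91 ± 0.91 for ARN1 and -3.86 ± 1.11 for TIS11 on the log2 scale (SE; limma, adjusted p = 0.0399 and 0.0299), where 38.6% of all genes were called (18.7% higher and 20.0% lower). Without BY4716 replicate 9 neither passed (adjusted p = 0.0628 for ARN1 and 0.0529 for TIS11), nor without BY4716 replicate 11 (0.0741 for ARN1 and 0.0589 for TIS11), and ARN1 did not pass without RM11-1a replicate 11 (0.0512) or BY4716 replicate 7 (0.0648). That difference equals the sum of both exchange strains minus the sum of both parents, so that the allele's dependence on background and a shift common to the YLK804 and YLK806 arrays cannot be told apart.

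The order of the strains differed among the genes. RM11-1a and YLK806 had no ARN2 or FET4 signal well above background, so these 2 strains stand below the other 3 with no order between them. ARN2 ran from YAD350 (1.52) over BY4716 (mean 0.05) and YLK804 (-0.08) to RM11-1a (mean -1.01) and YLK806 (-1.24), and neither YLK804 and BY4716 nor YLK806 and RM11-1a passed the test of their difference. FET4 ran from YAD350 (1.05) over YLK804 (0.72) and BY4716 (mean 0.57) to YLK806 (-0.15) and RM11-1a (mean -0.22), and again the last pair and the pair of YLK804 and BY4716 did not pass the test. TIS11 ran from RM11-1a (mean 0.79) over YAD350 (0.60) and BY4716 (mean -1.07) to YLK806 (-1.98) and YLK804 (-2.16), with no passed test between YAD350 and BY4716 or between YLK806 and YLK804. Without its replicate 7 the mean of TIS11 in RM11-1a was 0.14, below YAD350, and YAD350 minus BY4716 passed (limma, adjusted p = 0.0112).

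The genes with the most similar profile over the 9 arrays were sought among 5831 genes, each centred on its own mean, by the root mean square difference of log2 ratios. For FET3 these were FTR1 (0.34), CCC2 (0.34) and FRE3 (0.35), and for FTR1 it was CCC2 (0.18). FIT2 was nearest to FIT3 (0.16), FIT3 to FRE2 (0.13), ARN1 to TIS11 (0.39) and TIS11 to SIT1 (0.31). These neighbours are all members or listed regulon genes. The nearest genes of the others belonged to no iron list: PHM6 for ARN2 (0.18), CRR1 for FIT1 (0.070), YEL074W for FET4 (0.064) and GAB1 for AFT1 (0.074). All arrays share the reference RNA. The root mean square distance of a gene from its own mean was 0.23 for FIT1, 0.47 for FET4 and 0.24 for AFT1, against 1.31 for TIS11 and 1.24 for ARN1.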

How the data were processed

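RNA of 5 strains was measured on 9 two-colour Agilent arrays, with groups taken from the labels. Deposited scanner output gives each spot's intensity with its local background, read by Agilent Feature Extraction 8.5.1.1 or, for YLK804 and YLK806, 9.1.3.1, per the file headers. They also hold a log10 ratio of Cy5 over Cy3 that the same software made after background subtraction and dye normalization, per the file headers. The authors' deposited value table holds log2 ratios that equalled those of the scanner within 5e-04, with column medians between 0 and 0.008.

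Mean signals were corrected with normexp (offset 50) and normalized by loess within arrays in limma 3.58.1 under R 4.3.3. Control spots had weight 0 and were left out, as were 5 to 140 outlier spots per array; saturated spots were kept. Symbols came from the R64 RefSeq annotation for 5756 genes. A model with 5 groups was fitted with lmFit and eBayes to 5865 genes, with 4 residual and 3.38 prior degrees of freedom, and a Benjamini-Hochberg adjusted p under 0.05 was called. The spread came from the 6 parental arrays and was applied to the strains with 1 array. The number of arrays limits the precision. The fit was tested on simulated data.

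The 10 genes and the lists (other Aft1/Aft2 regulon, iron-sulfur assembly and iron sensing, iron-using enzymes, vacuolar storage, copper supply, other metals, regulators at FET4) were chosen with earlier results of these data known. Named from each list were the 3 called genes with the largest log2 difference whose arrays did not overlap between the parents, and 2 for each other comparison. CCC1 and LYS20 were named besides. Alternatives covered background correction, normalization, filters, an intensity trend, blocks and each parental array left out.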

Additional observations from a re-analysis of the deposited data

Results flagged for a closer look

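In the SAL1 comparison, ARN1 and TIS11 are singled out because they passed the test for a difference of the allele effect between the 2 backgrounds. They are 2 of the 10 genes, where 38.6% of all genes were called. The tested difference equals the sum of both exchange strains minus the sum of both parents. A shift common to the YLK804 and YLK806 arrays therefore cannot be told apart from it. For ARN1 the effect in the BY background minus that in the RM11-1a background was -2.91 ± 0.91 on the log2 scale (SE; limma, adjusted p = 0.0399), and for TIS11 it was -3.86 ± 1.11 (adjusted p = 0.0299). In YLK804 minus BY4716, TIS11 had a log2 difference of -1.09, and in YLK806 minus RM11-1a it had -2.77. The YLK804 and YLK806 arrays shared a scan day that held no parental array. On the log2 scale the reference channel moved by 0.68 in the ARN1 difference and by 1.02 in the TIS11 difference, and the strain channel by -2.24 and -2.84. Neither gene passed without BY4716 replicate 9 or without BY4716 replicate 11, and the part of the scan day was not tested.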

How the results depend on the processing

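The calls of ARN2 and FET4 between the parents, and of ARN1, kept their direction and passed under every setting in which the gene was tested; ARN2 and FET4 were not tested where a gene had to be well above background in both channels on all arrays. For RM11-1a minus BY4716 the number of the 10 genes called lay between 3 and 8 when 1 array was left out. In those fits 53.8% to 61.9% of all genes were called. The replicate numbers do not pair the parental arrays, whose same-numbered deviations correlated at -0.209, 0.137 and -0.176 across genes. The replicate block left 5 of the 10 genes called, where 58.0% of all genes were. With the scan day as a block 8 were called, but that difference rests on the 1 pair of arrays scanned on a shared day and its spread on BY4716 replicates 7 and 11 alone, so the count carries no weight.

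For YAD350 minus BY4716 the count was 3 to 9 over the arrays left out, where 36.5% to 50.2% of all genes were called. The 9 came without RM11-1a replicate 7, where 49.2% of all genes were called. With the filter on both channels the count was 1 of the 8 genes left, against 49.0% of all genes. ARN2 and FET4, called in the main fit, were not tested there. For YLK804 minus BY4716 the count was 0 to 2 over the arrays left out, against 10.1% to 24.7% of all genes. It was 1 with scaling between arrays, against 19.5%. For YLK806 minus RM11-1a the count was 0 to 4 over the arrays left out, against 14.6% to 26.6% of all genes. It was 2 with the deposited ratios (20.7% of all genes) and with an intensity trend (23.7%). It was 0 with median centring (13.6%) and 3 with scaling (31.6%). For YLK806 minus YLK804 the count was 2 to 3 over the arrays left out, against 35.3% to 43.3% of all genes. With the filter on both channels it was 0 of the 8 genes left, against 40.7%. For the difference of the SAL1 effect between backgrounds the count was 0 to 6 over the arrays left out, against 29.9% to 41.9% of all genes. It was 1 with offset 0 (35.5%) and 4 with scaling (41.4%). The averaged SAL1 effect was called for 0 of the 10 genes under every setting run, where 0.478% to 1.38% of all genes were called.

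Signs turned only in differences that had not passed. With the scan day as a block, RM11-1a minus BY4716 was -0.041 for FET3 and -0.085 for AFT1. With 1 array left out it ran from -0.22 (without RM11-1a replicate 7) to 0.53 for FET3 and from -0.014 (without RM11-1a replicate 7) to 0.15 for AFT1. Leaving out 1 array also gave -0.57 to 0.18 for FET3 in YLK806 minus RM11-1a and -0.13 to 0.20 for FTR1 in the averaged SAL1 effect, with the sign turned without RM11-1a replicate 7 in both. It gave -0.0026 to 0.0047 for FIT1 in YLK804 minus BY4716, negative without BY4716 replicate 7 and, at -0.0012, without BY4716 replicate 9. The deposited ratios turned FET4 in the averaged SAL1 effect (-0.19). Scaling turned FIT1 in YAD350 minus BY4716 (-0.041) and in YLK804 minus BY4716 (-0.035), and TIS11 in YLK806 minus YLK804 (-0.23). Except where fewer genes or arrays entered, the cause was not tested. No paired analysis was possible for the exchange strains, because each had 1 array. Signal over background limits ARN2 and FET4 in RM11-1a and YLK806.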

Other observations

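Genes next to 3 of the iron genes in the RefSeq order were looked up after the values of those 3 genes had been seen. Around ARN2, YHL049C, COS8 and DFP4 were also lower in RM11-1a than in BY4716, with log2 differences of -0.72, -0.60 and -1.15 (limma, adjusted p = 1.44e-05, 1.96e-05 and 6.51e-07), and the strain signals of COS8 and DFP4 were, like that of ARN2, not well above background on any RM11-1a array. PAU13, next to ARN2 on the other side, had -0.05 (adjusted p = 0.47). Around FET4, ADH6 was higher in RM11-1a by 1.03 (adjusted p = 4.61e-05) and YMR320W had -0.14 (adjusted p = 0.02). FIT2 and FIT3 lie next to each other, with FRE3 close by. FRE3 had a log2 difference of 0.56 between RM11-1a and BY4716 (adjusted p = 0.172), and FIT2, FIT3 and FRE3 were 2.35, 2.76 and 1.31 above the other RM11-1a arrays in replicate 7.

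Besides iron regulon genes, 3 genes were at least 2-fold higher in RM11-1a replicate 7 than in the other 2 arrays of its strain, and they are named here because of these values: FLO1 with 1.94, VMR1 with 1.42 and SNP1 with 1.17 on the log2 scale. FLO1 encodes a cell wall protein of flocculation. FLO1 and VMR1 were also at least 2-fold lower in RM11-1a replicate 9 than in the mean of its mates, with -1.19 and -1.02, and CTR3, a copper transporter gene, was too, with -1.36.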
